A study of Mus musculus with 12 samples.

Results

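N-glycan synthesis and processing was represented by 40 genes, each of which encodes an enzyme or subunit that builds, transfers, trims or extends the sugar trees carried on asparagine residues of secreted and membrane proteins. The genes were listed by name and sorted into 4 stages: lipid-linked assembly with 17 genes, transfer with 6, trimming with 8, and branching with terminal sugars with 9. Each was read from the brightest probe set annotated to that gene alone, and all 40 had exactly 1 such probe set among the 22180 genes measured. All 40 had a mean above 4.67 on the log2 scale, the 40th percentile of all genes, which was taken as the border of dim signal.

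Transcript levels came from 12 hearts, each on its own Affymetrix array (Mouse Gene 2.0 ST), 3 per genotype, and every value below is an RMA log2 value as the authors deposited it. All mice were males of the FVB strain, 15 weeks old. KI:KO mice were bred by crossing the single models and carry the ErbB2 KI allele, a cDNA knocked into the Erbb2 gene that acts as a hypomorph, together with ERRα KO, the loss of the nuclear receptor encoded by Esrra. ERRα KO and ErbB2 KI mice carry 1 of these changes each, and WT mice neither. The RNA came from heart tissue and not from sorted cells, so that fewer cells of a type and less RNA per cell cannot be told apart in any value given here.

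Asparagine-linked glycans begin as a sugar tree built on the lipid dolichol in the membrane of the endoplasmic reticulum, first on the cytosolic face and then, after flipping, in the lumen. The oligosaccharyltransferase complex moves the finished tree onto the growing protein, glucosidases and mannosidases trim it while the protein folds, and Golgi transferases then add branches, galactose, fucose and sialic acid. In heart muscle this machinery serves ion channels, adhesion molecules and growth factor receptors, and in fibroblasts and macrophages it serves secreted matrix and cell surface proteins.

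KI:KO hearts held all calls against WT in this list. Of the 40 genes, 3 rose (Alg8, Man2a1 and Mgat2) and 1 fell (Man2a2) against WT, called where the p of a limma fit of all 12 arrays, adjusted over all 22180 genes, was under 0.05. Over all genes 2.94% rose and 2.66% fell in the same comparison, so 1 lower call among 40 is close to the share of all genes. The median log2 difference of the 40 genes was 0.16, against -0.01 for all genes, and 28 of the 40 were above 0, against 48.2% of all genes. The shift differed between hearts: the 40 genes averaged 0.083, -0.015 and -0.068 from their KI:KO mean in replicates 1, 2 and 3. Trimming genes averaged 0.27, 0.08 and -0.02 from the WT mean in these arrays, assembly genes 0.12, 0.08 and 0.05, and branching genes 0.13, 0.03 and 0.08. In 13 of the 40 all 3 KI:KO arrays lay above all 3 WT arrays, a pattern found in 10.7% of all genes, and in 6 they lay below, a pattern found in 12.2%. The study itself names N-glycan biosynthesis among the gene networks altered in these hearts, so the direction of this list is not independent evidence.

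**Figure D1:**
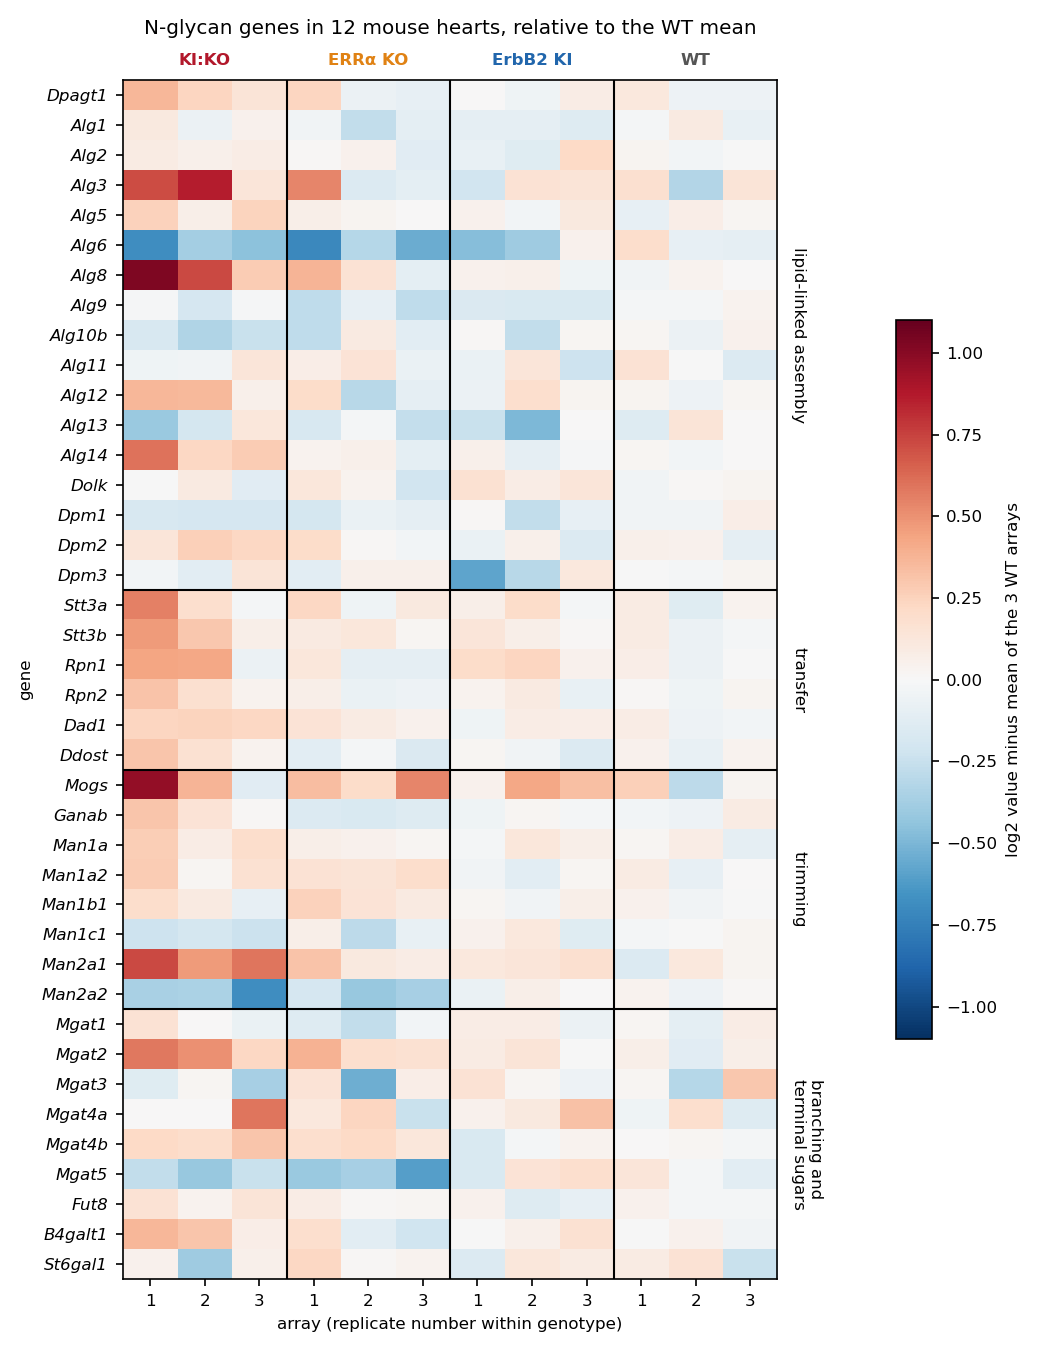
Log2 value of each of the 40 genes (rows, by stage) in each of the 12 arrays (columns, 3 per genotype), as the difference from the mean of the 3 WT arrays. Alg8, Alg3 and Man2a1 are red in all 3 KI:KO arrays and the transfer genes in KI:KO replicates 1 and 2, while Alg6, Man2a2 and Mgat5 are blue in both genotypes that lack ERRα.

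The promoters of called genes are shown so that Alg8, Man2a1 and Mgat2, which rose in KI:KO hearts, and Mgat5, which fell with loss of ERRα averaged over both ErbB2 genotypes, can be read beside their values. The RefSeq table used (GRCm38.p6, 250 bases before to 50 bases after the start) matched 33 of the 40 genes, and of the 6 genes called in any comparison it held Alg8 (chr7:97371367-97371666), Man2a1 (chr17:64601399-64601698), Mgat2 (chr12:69183908-69184207) and Mgat5 (chr1:127204736-127205035), all on the plus strand. Each is written 5′ to 3′ with the matches to the motifs searched in capitals.
Alg8: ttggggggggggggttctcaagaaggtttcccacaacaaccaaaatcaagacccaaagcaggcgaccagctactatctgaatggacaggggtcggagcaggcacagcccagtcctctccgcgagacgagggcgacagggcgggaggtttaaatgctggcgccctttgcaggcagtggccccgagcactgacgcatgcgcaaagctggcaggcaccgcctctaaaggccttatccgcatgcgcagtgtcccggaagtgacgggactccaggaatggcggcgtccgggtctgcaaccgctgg
Man2a1: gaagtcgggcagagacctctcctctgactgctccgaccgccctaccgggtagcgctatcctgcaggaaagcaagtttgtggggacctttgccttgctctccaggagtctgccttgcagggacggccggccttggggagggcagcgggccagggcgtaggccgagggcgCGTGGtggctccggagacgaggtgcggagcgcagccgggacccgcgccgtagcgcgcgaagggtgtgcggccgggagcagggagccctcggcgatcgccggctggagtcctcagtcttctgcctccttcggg
Mgat2: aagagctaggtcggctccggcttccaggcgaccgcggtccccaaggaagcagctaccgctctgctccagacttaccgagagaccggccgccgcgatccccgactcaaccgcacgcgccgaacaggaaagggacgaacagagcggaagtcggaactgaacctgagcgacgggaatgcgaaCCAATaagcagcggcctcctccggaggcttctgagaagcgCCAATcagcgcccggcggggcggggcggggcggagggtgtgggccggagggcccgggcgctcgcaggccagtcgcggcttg
Mgat5: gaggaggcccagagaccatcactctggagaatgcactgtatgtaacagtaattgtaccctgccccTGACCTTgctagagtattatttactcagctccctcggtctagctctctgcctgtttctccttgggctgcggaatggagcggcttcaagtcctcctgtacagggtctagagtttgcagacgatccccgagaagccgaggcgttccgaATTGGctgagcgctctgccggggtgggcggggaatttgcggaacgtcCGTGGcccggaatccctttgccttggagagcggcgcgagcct
The motifs searched, on both strands, were AAGGTCA, the core that ERR receptors bind, the letters CCAAT and the letters CCACG on their own, the ER stress element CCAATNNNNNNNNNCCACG, which holds the letters of both, and TGACGTG, an element of the unfolded protein response. AAGGTCA stood once in the Mgat5 promoter, on the minus strand as TGACCTT, and among the 33 genes in Mgat5 and Rpn2 alone (6.06%), against 5.38% of 27025 genes with a promoter. The capitals in Man2a1 are 1 CCACG, those in Mgat2 are 2 CCAAT, Mgat5 also has 1 of each, and Alg8 has none of these letters. CCAAT was found in 60.6% of the 33 genes, against 41.1% of the 27025, and CCACG in 60.6%, against 35.5%. The whole ER stress element was found only in Alg12 (0.137% of the 27025) and TGACGTG only in Dpm2 and Mogs (2.22% of the 27025). The 27025 were not matched to the 33 for level in heart or for base composition. These are matches of letters in a window of 300 bases and do not show binding.

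In the assembly stage the clearest member was Alg8, the glucosyltransferase that adds the second glucose to the lipid-linked tree. Its log2 values were 7.72, 7.43 and 6.98 in KI:KO hearts, 7.07, 6.86 and 6.59 in ERRα KO hearts, 6.75, 6.76 and 6.65 in ErbB2 KI hearts, and 6.66, 6.74 and 6.70 in WT hearts. All 3 KI:KO arrays lay above every ErbB2 KI and WT array, while the lowest of them lay below the highest ERRα KO array. Alg8 rose 1.60-fold in KI:KO hearts relative to WT (log2 difference 0.68, 95% interval 0.31 to 1.04, limma adjusted p = 0.0347). The difference was 0.14 in ERRα KO hearts and 0.02 in ErbB2 KI hearts relative to WT, neither called, and 0.66 in KI:KO relative to ErbB2 KI hearts (adjusted p = 0.0509). With 1 array left out, the Alg8 call ended in 7 of 12 fits (adjusted p 0.0511 to 0.118): the fits without WT replicate 1, 2 or 3, and the fits without replicate 1 or 2 of KI:KO or of ErbB2 KI. It was also lost in a limma fit of the 2 genotypes alone (adjusted p = 0.110). A one-way ANOVA of the 2 genotypes, adjusted over all genes, did not call it either (adjusted p = 0.287).

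Alg14, which anchors the enzyme that adds the second N-acetylglucosamine, was the next member of this stage by p. It measured 7.74, 7.37 and 7.43 in KI:KO hearts, 7.18, 7.20 and 7.04 in ERRα KO hearts, 7.20, 7.04 and 7.13 in ErbB2 KI hearts, and 7.17, 7.11 and 7.15 in WT hearts. The 3 KI:KO arrays were above all 9 others. The difference of 0.37 from WT (95% interval 0.14 to 0.60) nevertheless missed the threshold over all genes (adjusted p = 0.0672). Its catalytic partner Alg13 differed by -0.16 with overlapping arrays.

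The other genes of assembly did not pass the test in any comparison. Dpagt1, which starts the tree by placing N-acetylglucosamine phosphate on dolichol, differed by 0.25 between KI:KO and WT hearts. The mannosyltransferases that act on the cytosolic face, Alg1, Alg2 and Alg11, differed by 0.03, 0.07 and 0.02. Of the mannosyltransferases of the lumen, Alg3 differed by 0.57, Alg12 by 0.26 and Alg9 by -0.07. Alg3, singled out after its values were seen, measured 9.16, 9.30 and 8.58 in KI:KO hearts, against 8.62, 8.12 and 8.59 in WT hearts, which overlap, and its 95% interval was wide (0.07 to 1.07). Among the genes that make the dolichol-linked sugar donors, Alg5, which makes the glucose donor, differed by 0.19, the mannose donor subunits Dpm1 and Dpm2 by -0.19 and 0.21, and the dolichol kinase Dolk by -0.01. The regulatory subunit Dpm3 differed by less than 0.01 on the log2 scale.

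The 3 glucosyltransferases that finish the tree did not move alike. Beside the rise of Alg8, the enzyme before it, Alg6, had lower values in both genotypes without ERRα, and the enzyme after it, Alg10b, differed by -0.25 in KI:KO hearts. Alg6 was singled out after its values were seen: it measured 5.19, 5.50 and 5.42 in KI:KO hearts, 5.17, 5.56 and 5.32 in ERRα KO hearts, 5.40, 5.48 and 5.92 in ErbB2 KI hearts, and 6.06, 5.78 and 5.77 in WT hearts. All 6 arrays without ERRα were below the 3 WT arrays, but they overlapped the ErbB2 KI arrays. The differences from WT were -0.50 in KI:KO hearts (adjusted p = 0.0934) and -0.52 in ERRα KO hearts (adjusted p = 0.130), and neither passed.

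All 6 genes of the oligosaccharyltransferase complex, the transfer stage, had positive differences in KI:KO hearts, from 0.17 to 0.28, against 48.2% of all genes. None passed the limma test over all genes, and 2 were higher at an unadjusted p under 0.05 (8.53% of all genes were). The median was 0.24. The complex contains 1 of 2 catalytic subunits, Stt3a, which acts while the protein enters the endoplasmic reticulum, or Stt3b, which can act afterwards. Stt3a differed by 0.24 and Stt3b by 0.28, and the shared subunits Rpn1, Rpn2 and Ddost by 0.26, 0.17 and 0.17.

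Dad1, a small membrane subunit of the complex, had the smallest p of the stage. It measured 7.39, 7.40 and 7.39 in KI:KO hearts, 7.31, 7.25 and 7.21 in ERRα KO hearts, 7.11, 7.24 and 7.23 in ErbB2 KI hearts, and 7.24, 7.11 and 7.13 in WT hearts. The 3 KI:KO arrays were above the 9 others and almost identical to each other, with a difference of 0.23 from WT (95% interval 0.06 to 0.41, adjusted p = 0.129). Stt3b measured 9.32, 9.14 and 8.91 in KI:KO hearts, 8.95, 8.97 and 8.87 in ERRα KO hearts, 8.98, 8.91 and 8.86 in ErbB2 KI hearts, and 8.94, 8.78 and 8.82 in WT hearts, so that 1 KI:KO array lay within the range of each other genotype (adjusted p = 0.177).

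The size of the transfer difference depended on the array. Averaged over the 6 genes, KI:KO replicates 1, 2 and 3 lay 0.38, 0.25 and 0.05 above the WT mean, while ERRα KO arrays lay from -0.02 to 0.09, ErbB2 KI arrays from -0.02 to 0.11 and WT arrays from -0.07 to 0.07 of it. KI:KO replicate 3 was the lowest of its group for 6 of the 6 genes. It belongs to a set of 4 arrays, 1 per genotype (KI:KO replicate 3, ERRα KO replicate 2, ErbB2 KI replicate 3 and WT replicate 2), that stand apart over all probe sets by a higher lower quartile and a narrower spread, and what sets them apart was not tested. With these 4 arrays left out, all 6 differences were still positive, from 0.19 to 0.40, and still none was called.

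In the trimming stage the Golgi α-mannosidases II, a pair of enzymes with the same reaction, moved in opposite directions. Man2a1 measured 7.90, 7.64 and 7.76 in KI:KO hearts, 7.48, 7.28 and 7.25 in ERRα KO hearts, 7.29, 7.30 and 7.35 in ErbB2 KI hearts, and 7.02, 7.29 and 7.20 in WT hearts. The 3 KI:KO arrays were above the 9 others, and the other genotypes overlapped. Man2a1 rose 1.51-fold in KI:KO hearts relative to WT (log2 difference 0.59, 95% interval 0.36 to 0.82, adjusted p = 0.00591) and 1.37-fold relative to ErbB2 KI hearts (0.45, adjusted p = 0.0337). Relative to ERRα KO hearts the difference of 0.43 was not called (adjusted p = 0.122). The call against WT held with any 1 array left out and was lost only under the methods' test, a one-way ANOVA of the 2 genotypes, when its p was adjusted over all genes as here (adjusted p = 0.138), among 23 alternatives.

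Man2a2, often called α-mannosidase IIx, measured 9.09, 9.10 and 8.76 in KI:KO hearts, 9.27, 9.03 and 9.09 in ERRα KO hearts, 9.38, 9.51 and 9.45 in ErbB2 KI hearts, and 9.49, 9.39 and 9.46 in WT hearts. Every array without ERRα was below every array with it. How many of all genes show such a separation between sets of genotypes was not counted, for this or any other gene named. Man2a2 fell 1.38-fold in KI:KO hearts relative to both WT (log2 difference -0.46, adjusted p = 0.0265) and ErbB2 KI hearts (-0.46, adjusted p = 0.0353), and differed by -0.32 in ERRα KO hearts (adjusted p = 0.192, not called). The call against WT ended (adjusted p 0.0591 to 0.0964) when KI:KO replicate 3 or a WT array, whichever of the 3, was dropped and without the set of 4 arrays (adjusted p = 0.137). It was also lost under the methods' test (adjusted p = 0.207) and in a limma fit of the 2 genotypes alone (adjusted p = 0.101).

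The other 6 trimming genes did not pass any test. The glucosidases, which remove the glucoses once the tree is on the protein, differed between KI:KO and WT hearts by 0.40 for Mogs, with KI:KO values from 5.24 to 6.34 overlapping WT values from 5.08 to 5.64, and by 0.16 for Ganab. Ganab was singled out after its values were seen: it measured 8.27, 8.12 and 7.98 in KI:KO hearts, against 7.82, 7.81 and 7.83 in ERRα KO hearts, with no overlap (log2 difference 0.31, adjusted p = 0.206). The α-mannosidases that act before Mgat1, Man1a, Man1a2, Man1b1 and Man1c1, differed from WT by 0.18, 0.16, 0.07 and -0.22.

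In the branching stage Mgat2, which starts the branch on the second arm and so commits a glycan to the complex type, measured 8.05, 7.98 and 7.70 in KI:KO hearts, 7.86, 7.66 and 7.64 in ERRα KO hearts, 7.56, 7.62 and 7.47 in ErbB2 KI hearts, and 7.54, 7.35 and 7.54 in WT hearts. Every array without ERRα was above every array with it. Mgat2 rose 1.35-fold in KI:KO hearts relative to WT (log2 difference 0.44, 95% interval 0.19 to 0.68, adjusted p = 0.0404), and the difference in ERRα KO hearts was 0.25 (adjusted p = 0.380, not called). This was among the least stable calls: it was lost in 10 of the 12 fits that left out 1 array (adjusted p 0.0526 to 0.146), those being all except the fits without ERRα KO replicate 1 or KI:KO replicate 3, and without the set of 4 arrays (adjusted p = 0.0700). Mgat2 was also lost under the methods' test (adjusted p = 0.241) and in a limma fit of the 2 genotypes alone (adjusted p = 0.131).

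The enzymes that add further branches differed in sign. Mgat4b, which adds a further branch to the arm that Mgat1 starts, measured 7.89, 7.86 and 7.98 in KI:KO hearts, 7.86, 7.89 and 7.79 in ERRα KO hearts, 7.50, 7.64 and 7.71 in ErbB2 KI hearts, and 7.67, 7.69 and 7.65 in WT hearts. Mgat5, which adds the branch of tri- and tetra-antennary glycans that carries polylactosamine, measured 6.69, 6.55 and 6.72 in KI:KO hearts, 6.56, 6.60 and 6.35 in ERRα KO hearts, 6.79, 7.11 and 7.14 in ErbB2 KI hearts, and 7.10, 6.94 and 6.85 in WT hearts. The 6 arrays without ERRα were all higher than the 6 with it for Mgat4b, and all lower for Mgat5. Relative to WT alone neither gene was called in KI:KO hearts (0.24, adjusted p = 0.140, for Mgat4b and -0.31, adjusted p = 0.184, for Mgat5).

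None of the remaining 6 branching genes was called. Between KI:KO and WT hearts Mgat1, which opens the Golgi branching steps, differed by 0.03, Mgat3, which adds the bisecting residue, by -0.16, and Mgat4a, the second enzyme for the Mgat4b reaction, by 0.20. Fut8, which adds the core fucose, differed by 0.11, the galactosyltransferase B4galt1 by 0.25 and the sialyltransferase St6gal1 by -0.10. B4galt1, also picked after its values were seen, measured 9.75, 9.69 and 9.46 in KI:KO hearts, against 9.38, 9.43 and 9.34 in WT hearts, which do not overlap (adjusted p = 0.298).

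**Figure D2:**
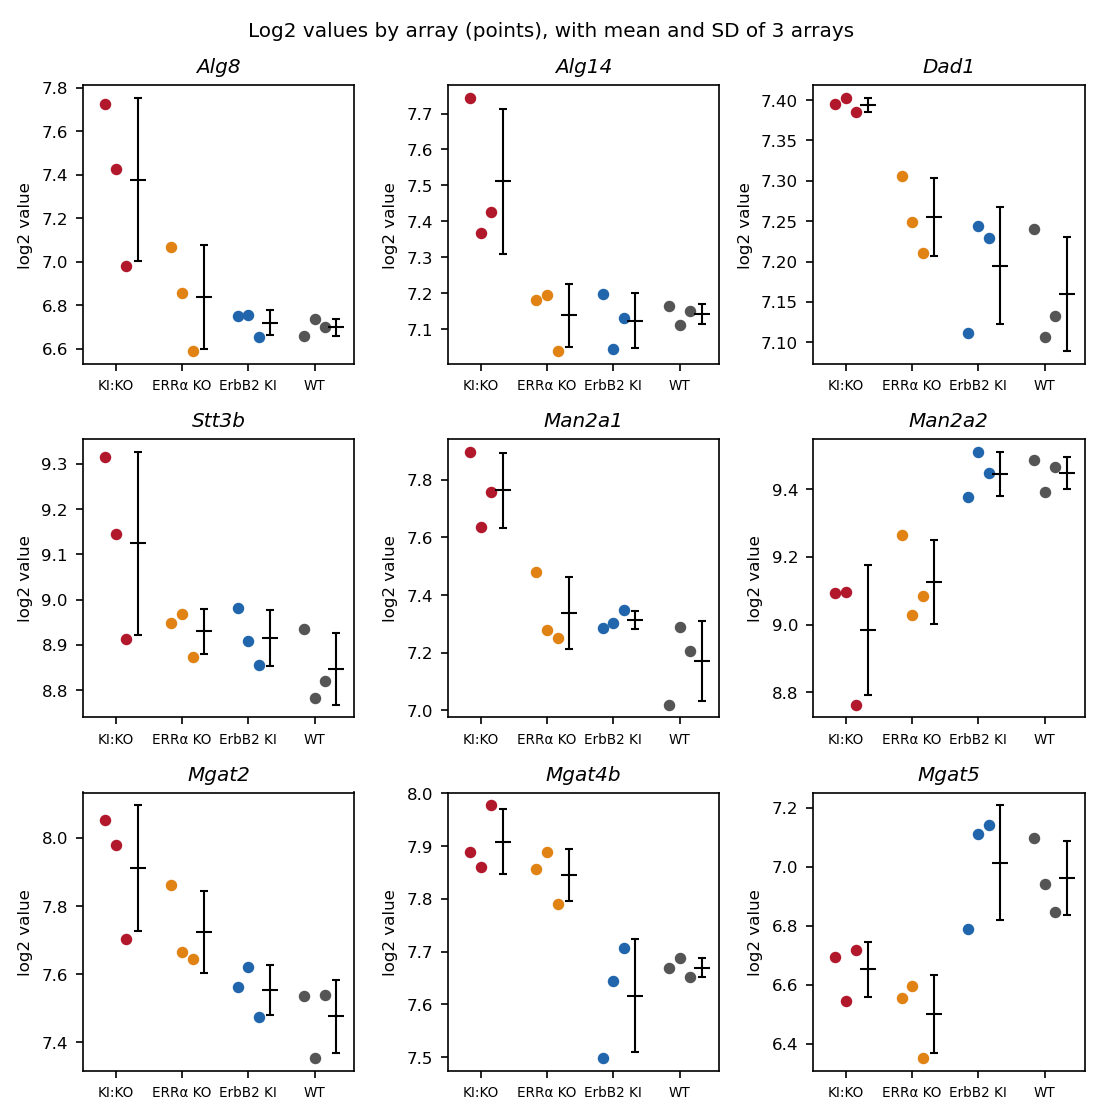
Log2 values of 9 genes in each array (points, left to right KI:KO, ERRα KO, ErbB2 KI and WT), with the mean and SD of the 3 arrays of a genotype as a bar. Man2a2 and Mgat5 are lower, and Mgat2 and Mgat4b higher, in all 6 arrays without ERRα than in all 6 with it, whereas Alg14 and Dad1 are raised in the 3 KI:KO arrays alone. The share of all genes with such separations was not counted.

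Loss of ERRα was also tested as an average over both ErbB2 genotypes, which sets the 6 arrays of KI:KO and ERRα KO hearts against the 6 of ErbB2 KI and WT hearts. Here 3 of the 40 genes rose (3.50% of all genes rose) and 2 fell (3.27% of all genes fell), and all 5 belong to trimming or branching. Man2a1 rose by 0.31 on the log2 scale (adjusted p = 0.0258), Mgat2 by 0.30 (adjusted p = 0.0380) and Mgat4b by 0.23 (adjusted p = 0.0335), while Man2a2 fell by 0.39 (adjusted p = 0.00816) and Mgat5 by 0.41 (adjusted p = 0.0106). No gene of assembly or transfer was called, with Alg8 at 0.40 (adjusted p = 0.0712) and Alg6 at -0.38 (adjusted p = 0.0663). The calls of Man2a2 and Mgat5 held with any 1 array left out and were lost only without the set of 4 arrays (adjusted p = 0.0682 and 0.0748), which leaves 2 arrays per genotype.

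The 3 rises were less stable than the 2 falls. Man2a1 was lost without WT replicate 1 or 3, ErbB2 KI replicate 1 or 2, ERRα KO replicate 1 or KI:KO replicate 1 (adjusted p 0.0507 to 0.0703), and without the set of 4 arrays (adjusted p = 0.0902). Mgat2 was lost in every fit that left out 1 array except that without KI:KO replicate 3 (adjusted p 0.0540 to 0.0930), and without the set of 4 arrays (adjusted p = 0.0747). Mgat4b was lost in every such fit except those without ErbB2 KI replicate 3 or KI:KO replicate 2 (adjusted p 0.0535 to 0.0865), and without the set of 4 arrays (adjusted p = 0.153).

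ERRα loss alone and ErbB2 KI alone gave no call in this list. In ERRα KO hearts 0 of the 40 genes passed in limma (1.14% of all genes rose and 1.21% fell), 1 was higher and 4 lower at an unadjusted p under 0.05 (5.94% and 6.76% of all genes), and the methods' test, adjusted over all genes, called 0. The 4 lower were Alg6, Alg9, Man2a2 and Mgat5, with differences of -0.52, -0.22, -0.32 and -0.46, and the higher was Mgat2 at 0.25. The median over the 40 genes was less than 0.01 from 0. Arrays without overlap were seen for 4 genes above WT (9.24% of all genes) and 6 below (10.9%), shares of the list that are close to or not far above those of all genes.

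In ErbB2 KI hearts 0 of the 40 genes passed in limma or in the methods' test and 0 were under an unadjusted p of 0.05 in limma (2.91% of all genes were higher and 2.42% lower at that p), where, after adjustment, 0.00451% of all genes rose and 0.00902% fell. The differences ran from -0.27 for Alg6 to 0.27 for Mogs, with a median of 0.02. Only Dolk lay above the WT arrays without overlap (5.59% of all genes did) and Alg1 and Alg9 below them (6.14%). The intervals were wide for some genes (95% interval -0.24 to 0.78 for Mogs), so small differences were not detectable with 3 arrays per genotype.

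**Figure D3:**
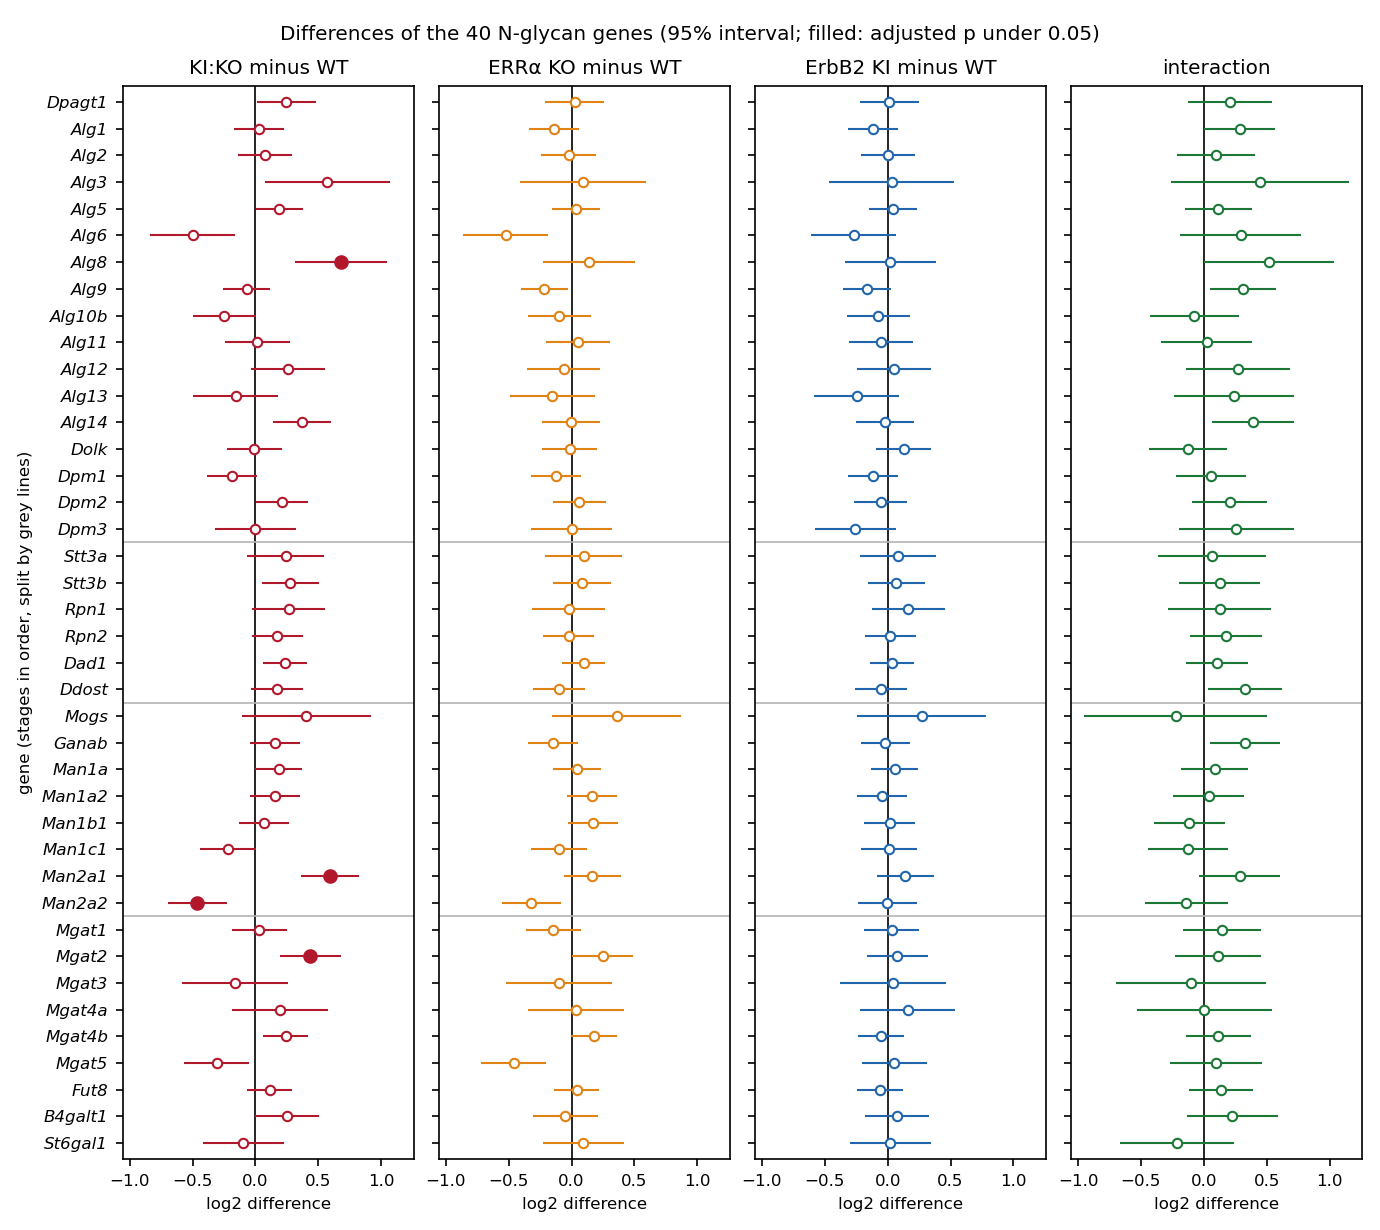
Log2 difference of each of the 40 genes with its 95% interval (limma, 12 arrays) for KI:KO, ERRα KO and ErbB2 KI relative to WT and for the interaction, in the order of the stages. Filled points passed an adjusted p of 0.05: they are Alg8, Man2a1, Man2a2 and Mgat2 in KI:KO hearts, and no point is filled in the other panels.

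Adding 1 allele to the other gave fewer calls. Between KI:KO and ERRα KO hearts 0 of the 40 genes passed in limma (0.198% of all genes rose and 0.131% fell), 7 were higher and 0 lower at an unadjusted p under 0.05 (5.58% and 5.03% of all genes), and the methods' test, adjusted over all genes, called 0. Those 7 were Alg8, Alg12 and Alg14 in assembly, Ddost in transfer, Ganab and Man2a1 in trimming and B4galt1 in branching, with differences from 0.27 to 0.54. Between KI:KO and ErbB2 KI hearts Man2a1 rose and Man2a2 fell (2.22% of all genes rose and 1.69% fell), the values being those given above. Both of these calls were lost without ErbB2 KI replicate 1, 2 or 3, KI:KO replicate 3 or WT replicate 3, Man2a1 also without KI:KO replicate 1 (adjusted p 0.0531 to 0.123), and Man2a2 also without WT replicate 1 or ERRα KO replicate 3 (adjusted p 0.0537 to 0.122). Neither call held in a fit with a block for replicate number (adjusted p = 0.0733 for Man2a1 and 0.0591 for Man2a2) or without the set of 4 arrays (0.144 and 0.181), nor did that of Man2a2 with each array centred on its median (0.0536). Man2a1 and Man2a2 were also lost under the methods' test and in a limma fit of the 2 genotypes alone. In the fits with the block and with centring, Alg8 was called (0.66 and 0.70, adjusted p = 0.0353 and 0.0416).

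The interaction asks whether the KI:KO difference exceeds the sum of the differences of the single models. No gene of the list passed (0 of 40 in limma, where 0.00451% of all genes were positive and 0.00451% negative), and 6 were under an unadjusted p of 0.05 (3.44% of all genes were positive and 3.61% negative at that p), all positive: Alg1, Alg8, Alg9, Alg14, Ddost and Ganab, with values from 0.28 to 0.52. The interaction was above 0 for 32 of the 40 genes, against 50.4% of all genes, and its median was 0.12, against less than 0.01 for all genes. By stage, 15 of 17 assembly genes and 6 of 6 transfer genes were positive, against 4 of 8 in trimming and 7 of 9 in branching. Relative to WT, 10 of 17 assembly genes were above 0 in KI:KO hearts, 6 in ERRα KO hearts and 7 in ErbB2 KI hearts. Of the 6 genes named, Alg8, Alg14, Ddost and Ganab differed from WT by 0.68, 0.37, 0.17 and 0.16 in KI:KO hearts. Alg1 and Alg9 differed by 0.03 and -0.07 there, by -0.14 and -0.22 in ERRα KO hearts and by -0.12 and -0.16 in ErbB2 KI hearts. With each array centred on its median the all-gene median of the interaction was 0.08 and that of the 40 genes 0.19, and after quantile normalization they were 0.01 and 0.08.

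Genes that supply or accompany the 40 were taken from a list of the wider pathway, of which 58 were measured. In KI:KO hearts 4 of the 58 rose relative to WT, where 2.94% of all genes rose. None fell in limma, where 2.66% of all genes fell, and 2 were lower at an unadjusted p under 0.05 (8.89% of all genes were). In ERRα KO hearts 2 rose, where 1.14% of all genes rose. The 4 were Gfpt2, Uap1, Ugp2 and B4galt5. Of them 3 belong to sugar nucleotide supply, in which 3 of 19 genes rose and 17 of 19 differences were positive, against 48.2% of all genes.

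Gfpt2, an isoform of the enzyme that starts the hexosamine pathway from fructose 6-phosphate, measured 8.82, 8.85 and 8.59 in KI:KO hearts, 8.38, 8.16 and 8.24 in ERRα KO hearts, 7.68, 7.91 and 7.59 in ErbB2 KI hearts, and 7.17, 7.26 and 7.12 in WT hearts. The 4 genotypes did not overlap. Gfpt2 rose 2.97-fold in KI:KO hearts (log2 difference 1.57, 95% interval 1.33 to 1.81, adjusted p = 1.70e-05) and 2.11-fold in ERRα KO hearts (1.07, adjusted p = 2.99e-04), and the ErbB2 KI difference of 0.54 was not called (adjusted p = 0.320). Its interaction was -0.05 (95% interval -0.39 to 0.29). The other isoform, Gfpt1, differed by 0.03 in KI:KO hearts.

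Uap1, which makes UDP-N-acetylglucosamine at the end of the hexosamine pathway, measured 8.09, 8.03 and 7.56 in KI:KO hearts, 7.03, 7.11 and 7.16 in ERRα KO hearts, 7.20, 7.12 and 7.32 in ErbB2 KI hearts, and 7.01, 7.20 and 7.08 in WT hearts. It was raised in KI:KO hearts alone: it rose 1.74-fold relative to WT (log2 difference 0.80, adjusted p = 0.00403), 1.74-fold relative to ERRα KO (0.79, adjusted p = 0.0298) and 1.60-fold relative to ErbB2 KI hearts (0.68, adjusted p = 0.0136). Its interaction of 0.68 had an unadjusted limma p of 0.00340, which adjustment over all genes took to 0.425. The call against WT was lost only under the methods' test (adjusted p = 0.178) among 23 alternatives. The call against ERRα KO was lost in 8 of the 12 fits without 1 array (adjusted p 0.0509 to 0.113), all but those without ErbB2 KI replicate 2 or 3, WT replicate 2 or KI:KO replicate 3, and that against ErbB2 KI (adjusted p 0.0554 to 0.0588) when replicate 1 or 2 of either genotype was dropped. Both calls were also lost under the methods' test and in a limma fit of the 2 genotypes alone.

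Ugp2, which makes the UDP-glucose used for the glucose donor and for glycogen, measured 11.48, 11.71 and 11.79 in KI:KO hearts, 11.33, 11.42 and 11.60 in ERRα KO hearts, 11.27, 11.10 and 11.20 in ErbB2 KI hearts, and 11.18, 10.95 and 11.08 in WT hearts. All 6 arrays without ERRα were above the 6 with it. Ugp2 rose 1.51-fold in KI:KO hearts relative to WT (log2 difference 0.59, adjusted p = 0.00865). The call was lost without the set of 4 arrays (adjusted p = 0.141) and under the methods' test (adjusted p = 0.15). The difference of 0.38 in ERRα KO hearts was not called (adjusted p = 0.128).

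B4galt5, a galactosyltransferase that is also known as a lactosylceramide synthase, measured 9.38, 8.55 and 8.32 in KI:KO hearts, 8.41, 8.33 and 8.04 in ERRα KO hearts, 7.16, 7.22 and 7.27 in ErbB2 KI hearts, and 7.01, 7.14 and 7.17 in WT hearts. The arrays without ERRα were again all above those with it. B4galt5 rose 3.13-fold in KI:KO hearts (log2 difference 1.65, adjusted p = 9.96e-04) and 2.23-fold in ERRα KO hearts (1.15, adjusted p = 0.0147) relative to WT. The KI:KO call was lost only under the methods' test (adjusted p = 0.152) among 23 alternatives. The ERRα KO call was lost without WT replicate 1 or 3 or ERRα KO replicate 1 or 2 (adjusted p 0.0513 to 0.0716), without the set of 4 arrays (adjusted p = 0.0849) and under the methods' test (adjusted p = 0.0672). 

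**Figure D4:**
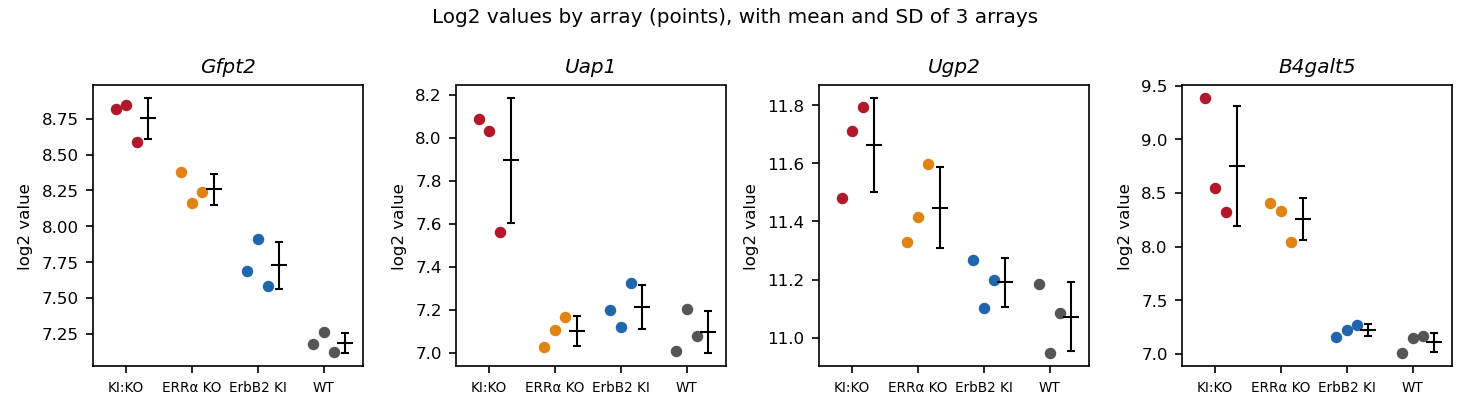
Log2 values of Gfpt2, Uap1, Ugp2 and B4galt5 in each array (points, left to right KI:KO, ERRα KO, ErbB2 KI and WT), with the mean and SD of 3 arrays as a bar. Gfpt2 separates the 4 genotypes without overlap, highest in KI:KO and lowest in WT arrays, B4galt5 and Ugp2 separate arrays without ERRα from those with it, and Uap1 is raised in the 3 KI:KO arrays alone. The share of all genes with such separations was not counted.

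The rest of the wider list passed no test against WT. The 6 other transferase subunits differed by 0.10 to 0.43 in KI:KO hearts, all positive, with Tmem258, a small subunit, at 0.43 (adjusted p = 0.142) and 0.64 relative to ErbB2 KI hearts (adjusted p = 0.0366). That call was lost in 8 of the 12 fits without 1 array, all but those without WT replicate 1 or 2 or ERRα KO replicate 2 or 3 (adjusted p 0.0524 to 0.137). It was also lost under the methods' test. The genes of glycoprotein folding and disposal in the endoplasmic reticulum gave 0 calls of 13 in limma. At an unadjusted p under 0.05, 1 was higher (8.53% of all genes were), Edem1 at 0.50. The chaperones and stress genes of that compartment, a list that stands beside the pathway, had 2 of 19 higher in KI:KO hearts, where 2.94% of all genes were: Sdf2l1 (1.02, adjusted p = 0.0241) and Dnajc3 (0.54, adjusted p = 0.0362). Their median difference from WT was 0.24 in KI:KO hearts, 0.09 in ErbB2 KI hearts and -0.14 in ERRα KO hearts. Differences were positive for 16 of 19 in KI:KO hearts (48.2% of all genes), 16 in ErbB2 KI hearts (48.8%) and 6 in ERRα KO hearts (49.2%). At an unadjusted limma p under 0.05, 8 of 19 were higher in KI:KO than in WT hearts (8.53% of all genes were). Relative to ERRα KO hearts 10 were higher in KI:KO hearts at that p (5.58% of all genes), and 0 were called. None of the 19 passed in limma in either single model. At the same unadjusted p, 1 was higher in ErbB2 KI hearts (2.91% of all genes were) and 1 lower in ERRα KO hearts (6.76%). For 8 of 19 all ErbB2 KI arrays lay above WT (5.59% of all genes), and for 8 all ERRα KO arrays lay below (10.9%).

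Marker genes of several cell types of the heart differed between the same groups, and their part in the differences of the 40 genes was not tested. Among the 14 genes marking macrophages, 10 were called higher in KI:KO than in WT hearts (2.94% of all genes were). In ERRα KO hearts 0 of the 14 were called, and 8 were higher at an unadjusted p under 0.05 (5.94% of all genes). The summed level of the 14, taken as the log2 of the sum of linear values, lay between 12.01 and 12.39 in KI:KO arrays, 11.43 and 12.13 in ERRα KO arrays, 11.27 and 11.42 in ErbB2 KI arrays, and 11.24 and 11.30 in WT arrays. Of 12 fibroblast and matrix markers 4 rose in KI:KO hearts (2.94% of all genes did). In ERRα KO hearts 0 of the 12 were called, and 6 were higher at an unadjusted p under 0.05 (5.94% of all genes). The sums of the 12 were 13.49 to 14.08 in KI:KO arrays, 13.36 to 13.58 in ERRα KO arrays, 13.11 to 13.25 in ErbB2 KI arrays and 13.12 to 13.15 in WT arrays. Of 10 cardiomyocyte markers 3 fell in KI:KO hearts (2.66% of all genes did), and all 10 were above the dim border. Their sums were 15.85 to 15.89 in KI:KO and 15.98 to 16.02 in WT arrays. Smooth muscle and pericyte markers gave 2 rises and 1 fall of 8, and endothelial markers 1 fall of 10 (2.94% of all genes rose and 2.66% fell). Adipocyte and lymphocyte markers gave 0 calls of 6 and 7 in limma, 4 of the 7 lymphocyte markers being dim. At an unadjusted p under 0.05, 1 adipocyte marker was higher (8.53% of all genes were) and 2 lymphocyte markers were lower (8.89%). Adipocyte markers had another order. Their median difference from WT was 0.18 in KI:KO hearts, 0.73 in ERRα KO hearts and 0.74 in ErbB2 KI hearts. In ERRα KO hearts 1 of 6 rose (Ucp1, known from brown fat), where 1.14% of all genes rose, and in ErbB2 KI hearts none was called in limma. At an unadjusted p under 0.05, 4 of 6 were higher in ERRα KO hearts (5.94% of all genes were) and 4 of 6 in ErbB2 KI hearts (2.91%).

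The targeted genes followed the labels, although which part of each gene its probes cover is not given in the sources used here. Esrra lay between 6.17 and 6.43 in the arrays of both genotypes without ERRα, against 7.40 to 7.74 in the others, and Erbb2 between 5.61 and 5.97 in the arrays of both genotypes with the ErbB2 KI allele, against 6.39 to 6.80 in the others.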

How the data were processed

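RNA of 12 hearts, 3 per genotype, was hybridised to Affymetrix Mouse Gene 2.0 ST arrays. The deposited values are log2 values per probe set, which the authors obtained by RMA (per the study's methods, with Expression Console 1.4.1 of Affymetrix), and were used unchanged. Array medians lay between 4.58 and 4.65 and correlations between arrays, across genes, between 0.975 and 0.988. With 3 arrays per genotype, labelled as biological replicates, the number of arrays limits the precision.

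Of 41345 probe sets, 23521 had 1 gene in the platform annotation, 1820 several and 16004 none. The brightest 1-gene probe set stood for each of 22180 genes. A probe set naming St6gal1 with other genes was left out. Genes were compared with limma (3.58.1, R 4.3.3) in 1 model of 4 genotype means (8 residual and 3.81 prior degrees of freedom), two-sided, and a call needed p under 0.05 after Benjamini-Hochberg adjustment across the 22180 genes. The fit was tested on simulated data. The members and lists were chosen with earlier results of these data known. Values per array were given for members called in any comparison and for the 2 members of a stage with the smallest p in KI:KO against WT where fewer than 2 were called (Alg3, Alg6, Ganab and B4galt1 were added after their values were seen), and wider pathway genes were named where called in KI:KO against WT (Tmem258, Gfpt1 and Edem1 were likewise added after their values were seen). One alternative, called the methods' test, was the one-way ANOVA of the methods, run here on 2 genotypes with its p adjusted over all genes. Another was the methods' threshold (unadjusted p under 0.05 and 1.2-fold) on the limma fit. Further alternatives were a fit of 2 genotypes, a filter on dim genes, averaging the probe sets of each gene, median centring and quantile normalization. An intensity trend, array weights, a replicate block and leaving out each array were also used. Chosen after seeing the data were this ANOVA of 2 genotypes at the methods' threshold, a block for 4 arrays that stand apart and leaving them out. The plots used matplotlib 3.10.9 under Python 3.11.15.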

Additional observations from a re-analysis of the deposited data

How the results depend on the processing

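No called gene changed direction under any alternative run. The count of called genes among the 40, in KI:KO against WT, was 4 (5.60% of all genes were called). It was 9 at the methods' threshold (14.6%) and 7 by the methods' test at that threshold (10.5%). The study names this ANOVA and these cut-offs, but does not state that its ANOVA took 2 genotypes at a time. The count was 0 by the methods' test after adjustment (0.365%) and 1 in a fit of the 2 genotypes alone (2.82%). It was 7 after the filter on dim genes (14.0% of the genes kept). Without the 4 arrays that stand apart it was 2 (2.96%), these being Alg8 and Man2a1. In ERRα KO against WT the count of 0 became 3 at the methods' threshold (10.4% of all genes) and 3 by the methods' test at that threshold (7.94%). It became 1 with the filter (6.6% of the genes kept), 1 with an intensity trend (4.09%) and 2 with array weights (3.93%). For KI:KO against ERRα KO the count of 0 became 7 at the methods' threshold (8.45%) and 4 by the methods' test at that threshold (4.74%). With an intensity trend it became 1 (1.33%). For KI:KO against ErbB2 KI the count of 2 became 9 at the methods' threshold (12.96%) and 8 by the methods' test at that threshold (8.71%). It was 0 by the methods' test after adjustment (0% of all genes) and 0 in the fit of 2 genotypes (1.52%). It was 6 with the filter (10.1% of the genes kept) and 6 with an intensity trend (6.12%). With a block for the 4 arrays it was 4 (4.53%), and without them 0 (2.08%). The count of 5 for the averaged loss of ERRα became 0 without the 4 arrays (4.07%), and the count of 0 for the interaction became 6 at the methods' threshold (6.98%). The cause of these shifts was not tested, except that leaving out 4 arrays leaves 2 per genotype.

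With each array left out in turn, the counts ranged from 1 to 5 for KI:KO against WT, from 0 to 1 against ERRα KO and from 0 to 2 against ErbB2 KI, and from 2 to 5 for the averaged loss of ERRα. They were 0 throughout for ERRα KO or ErbB2 KI against WT and for the interaction.

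Whether replicate numbers pair the arrays could not be settled: 3 of 18 correlations between deviations of same-numbered arrays were over 0.1 (range -0.19 to 0.20). The highest, 0.20 for replicate 2 of ERRα KO and WT and 0.18 for replicate 3 of KI:KO and ErbB2 KI, joined arrays of the set of 4 that stand apart. With the replicate block the 4 genes called in KI:KO against WT were the same. For KI:KO against ErbB2 KI the count was 1, with Man2a1 and Man2a2 lost and Alg8 called. For the averaged loss of ERRα it was 4, with Man2a1 (adjusted p = 0.0567) and Mgat4b (0.0676) lost and Alg8 called (0.0437). Of the wider pathway, Uap1 against ERRα KO (0.0748) and Tmem258 against ErbB2 KI (0.0578) were lost, as were Ugp2 against ErbB2 KI (0.0579) and Uap1 for the averaged loss (0.0870).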
